A study of Mus musculus with 8 samples.

Results

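The subunits of the respiratory chain and the ATP synthase were followed in bulk tumor RNA, as 98 of the 28918 genes in the deposited expression table. They were chosen by symbol: mt-Nd, mt-Co, mt-Cytb and mt-Atp genes, Nduf genes, Sdha to Sdhd, Uqcr genes, Cox4 to Cox8 genes and Atp5 genes. Of 108 matching symbols, 7 pseudogene symbols and the 3 heart and muscle isoforms Cox6a2, Cox7a1 and Cox8b were left out. The members were 13 genes of mitochondrial DNA and 85 nuclear genes.

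The tumors were subcutaneous implants of B16-mhgp100, a mouse melanoma line, in C57BL/6 mice. One group carried cells over-expressing Colq, which encodes the collagen tail of acetylcholinesterase, and the other carried cells with the empty vector. All mice in both groups received anti-PD1, an antibody that blocks a T cell inhibitory receptor, at 200 µg per dose, in 4 doses of which 2 were given per week, starting 10 days after the cells were injected. Tumors were collected 1 day following the final dose. The Colq group has 3 tumors and 3 libraries, and the vector group 3 tumors and 5 libraries, since vector tumors 1 and 2 were sequenced as 2 portions. The labels do not say how many clones of either cell line were used. Because all mice were treated, the comparison is between tumor lines under the antibody, not between treated and untreated tumors.

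Complexes I and II pass electrons from NADH and succinate to ubiquinone, complex III passes them on to cytochrome c, complex IV passes them to oxygen, and complex V uses the proton gradient so built to make ATP. The catalytic cores of complexes I and III and the membrane part of complex V combine subunits from mitochondrial DNA with nuclear ones. The catalytic core of complex IV is mitochondrially encoded, whereas complex II is wholly nuclear. Around the cores lie many small accessory subunits, several with tissue isoforms.

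The table holds normalized values (TPM, which scale transcripts by length and library), so read depth per library is unknown, and its number of genes above 0 was 19887 to 21602 per library. As a check of the labels, the Colq transcript was measured at 4.05, 5.03 and 3.86 TPM in its own group and at 0 to 0.24 TPM in vector libraries. All 7 melanocyte lineage markers were present, with a summed level of 10900 to 11300 TPM in Colq tumors and 18200 to 22300 TPM in vector tumors. Of these markers 6 were lower in Colq tumors, and after size factors 4 were lower and 2 higher. Skeletal muscle fiber markers moved with the groups: 14 of 16 were tested and all 14 were higher in Colq tumors, with a summed level of 1030 to 1050 TPM against 53.6 to 126 TPM. Macrophage markers were higher for 2 of 8 (7 of 8 after size factors and in the authors' deposited table), with summed levels of 1570 to 1610 against 455 to 959 TPM, of which Lyz2 alone made 869 against 188 TPM on average. All 4 tested of the 5 endothelial markers were lower, also after size factors. Beside these counts, 11.3% of all tested genes were higher and 59.6% lower, and after size factors 26.5% and 27.7%. The other marker lists, of slow muscle fibers, adipocytes, T cells, epidermis and red cells, had 0, 1, 3, 3 and 0 markers higher of 1, 3, 6, 5 and 4 tested. In bulk tumors, fewer cells of a type and less RNA per cell cannot be told apart, and the part of these other cells in the results below was not tested. The Colq libraries were also close to each other: over the tested members, the median absolute log2 difference was 0.05 to 0.06 between Colq tumors, 0.09 to 0.14 between vector tumors, and 0.10 and 0.15 between portions of a single vector tumor. The labels call the Colq libraries separate tumors; counts of members called with them averaged as 1 sample are given below.

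Of the 98 members, 94 had a mean of at least 1 TPM and were tested. In Colq tumors 72 were higher and 12 lower, and 10 were not called, by limma with an adjusted p under 0.05. Over all 13726 tested genes 11.3% were higher and 59.6% lower. The median log2 fold change was 0.64 over the members and -0.50 over all tested genes. In 72 members every Colq tumor was above every vector tumor and in 12 every Colq tumor was below, where 12.5% and 62.2% of all genes did so. Because the median gene is shifted, the counts depend on the scale: after size factors 85 members were higher and 1 lower, with a median of 1.18, against 26.5% higher and 27.7% lower over all genes. With the Colq libraries as 1 sample, 60 were higher and 6 lower, against 5.74% and 41.6%. Of the nuclear members named below, those no longer called in that fit were Atp5b (adjusted p = 0.057), Atp5d (0.19), Atp5g2 (0.17), Sdhb (0.21), Ndufa9 (0.082), Ndufs8 (0.053), Cox7a2l (0.065) and Uqcrc2 (0.13). The 4 members that could not be tested were Cox6b2, a testis isoform, and the extra copies Ndufa11b, Ndufb11b and Ndufs6b, none above 2.80 TPM in any library.

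**Figure D1:**
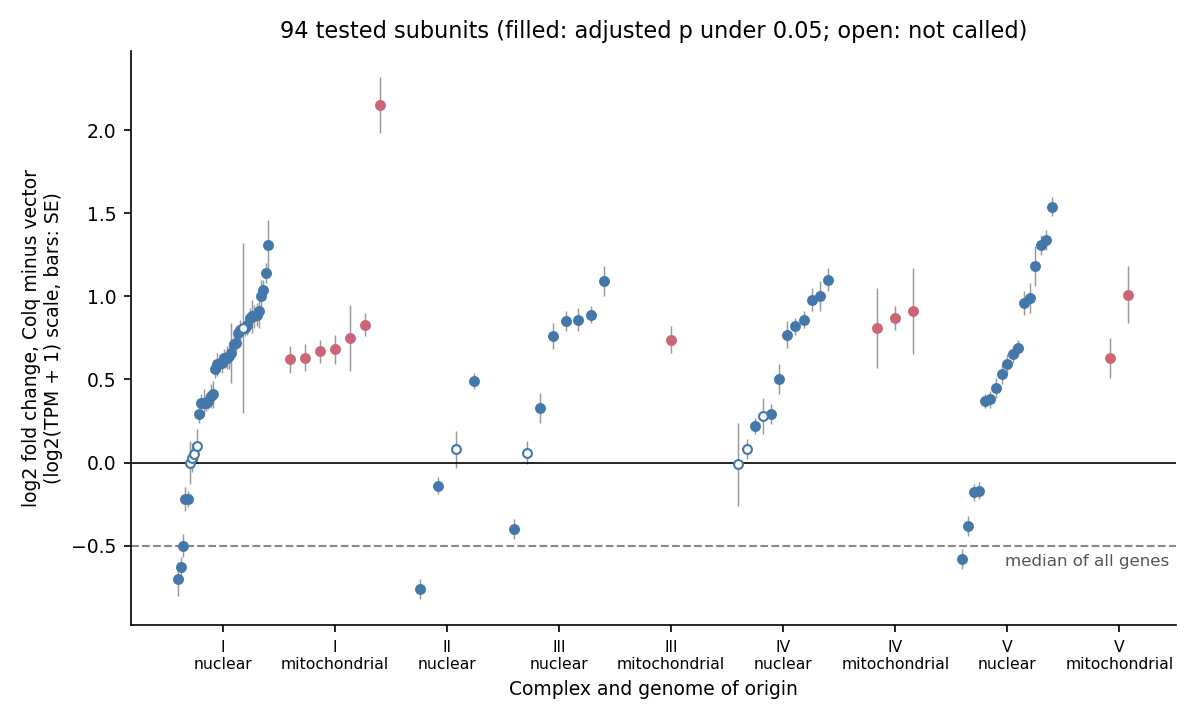
The log2 fold change (Colq minus vector, on the log2(TPM + 1) scale) of each of the 94 tested subunits, with its SE, is plotted by complex and genome of origin. Nuclear encoded subunits (blue) span -0.76 to 1.54, the 13 mitochondrially encoded subunits (red) all lie between 0.62 and 2.15, and the dashed line marks the median of all tested genes at -0.50.

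Mitochondrially encoded subunits share much of their sequence with a stretch of nuclear pseudogenes, which bears on every value printed for them. On chromosome 1 (build GRCm38, minus strand, from base 24612407 to base 24616197), 6 annotated unprocessed pseudogenes match mt-Co1, mt-Co2, mt-Atp6, mt-Co3, mt-Nd3 and mt-Nd4l. The copies of mt-Co2, mt-Atp6, mt-Co3 and mt-Nd4l are identical to the gene over their whole length of 681, 678, 783 and 294 bases. The copy of mt-Nd3, named Gm28438, differs at 1 of 345 bases, and that of mt-Co1, named Gm29216, at 6 of 492 bases, all at its start. The differing stretches are shown because these are the only bases within the matched length at which gene and copy differ; capitals mark the bases that differ, and positions count from 1 at the start of the mitochondrial gene in the GENCODE M21 transcripts.
mt-Nd3, bases 1 to 43: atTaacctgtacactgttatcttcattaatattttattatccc
Gm28438, the same bases: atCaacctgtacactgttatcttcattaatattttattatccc
mt-Co1, bases 1054 to 1106: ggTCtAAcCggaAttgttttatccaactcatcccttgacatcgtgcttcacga
Gm29216, the same bases: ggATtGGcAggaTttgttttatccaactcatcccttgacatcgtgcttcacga
In mt-Nd3 the substitution is T3C, and in mt-Co1 the substitutions run from T1056A to A1066T. Reads that fall elsewhere in the matched lengths fit gene and copy equally well, so the deposited split between them is uncertain.

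The mitochondrially encoded subunits were higher in Colq tumors for 13 of 13 genes, with log2 fold changes from 0.62 for mt-Nd4 to 2.15 for mt-Nd3 and a median of 0.75. With the Colq libraries as 1 sample 9 of 13 were called, and the genes no longer called were mt-Co2, mt-Co3, mt-Atp8 and mt-Nd4l. The 7 complex I subunits, which form its proton-pumping membrane arm, had a median of 0.68. Among the 6 other than mt-Nd3 the values were 0.62 to 0.83, with mt-Nd1 the highest at 6883, 6924 and 7070 TPM in Colq tumors and 3911, 3612 and 4283 TPM in vector tumors. mt-Cytb, the only mitochondrial subunit of complex III, rose by 0.74 ± 0.08 on the log2 scale (SE; adjusted p = 0.00015). Its vector tumors reached 4478 TPM and its Colq tumors began at 6500 TPM.

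mt-Nd3 had the largest deposited change among all members. It was at 1739, 1376 and 1509 TPM in the Colq tumors and at 450.0, 339.3 and 279.0 TPM in the vector tumors, a log2 fold change of 2.15 ± 0.17 (SE; adjusted p = 3.9e-05). Its copy Gm28438 held most of the signal, since mt-Nd3 itself held 20.8% of the summed TPM in Colq and 11.5% in vector tumors. Summed with the copy, mt-Nd3 was at 7401 ± 378 TPM against 3099 ± 470 TPM (SD, n = 3 each), and the log2 fold change was 1.27 ± 0.11 (adjusted p = 5e-05). The direction was the same and the size was smaller.

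mt-Co2, a catalytic subunit of complex IV, was the member whose error moved most. As deposited it was at 7174, 11100 and 9131 TPM in Colq tumors and at 3769, 4032 and 7217 TPM in vector tumors, so that vector tumor 3 exceeded Colq tumor 1. Its log2 fold change of 0.91 ± 0.26 (adjusted p = 0.016) lost its call without vector tumor 1 (0.066), vector tumor 2 (0.062), Colq tumor 2 (0.062) or Colq tumor 3 (0.052). Summed with its copies, the coefficient of variation between vector tumors went from 38.3% to 1.73% and that between Colq tumors from 21.5% to 2.5%. The log2 fold change was then 0.96 ± 0.05 (adjusted p = 1.3e-05), and the groups no longer overlapped. mt-Co3, the other complex IV subunit with a full-length copy, went from 0.81 ± 0.24 to 0.92 ± 0.06 in the same way; as deposited, its call was lost without Colq tumor 3 (adjusted p = 0.070) or vector tumor 1 (0.052). mt-Co1, the subunit that reduces oxygen, held most of the summed TPM itself, 82.2% in Colq and 87.6% in vector tumors, and changed from 0.87 ± 0.07 to 0.96 ± 0.06.

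The ATP synthase subunit mt-Atp6 went from 1.01 ± 0.17 to 0.76 ± 0.07 when summed with its copy, which held the larger part of the signal in both groups. mt-Nd4l went from 0.75 ± 0.20 to 0.48 ± 0.15 (adjusted p = 0.020). The search listed no copy above 1 TPM for mt-Atp8, but 43 of its bases lie within mt-Atp6. The copy of mt-Atp6 matches 678 of the 681 bases of that gene, so part of mt-Atp8 may share reads with it. mt-Atp8 was at 15640, 16060 and 13960 TPM against 9155, 8776 and 11780 TPM, a log2 fold change of 0.63 ± 0.12 (adjusted p = 0.0021). With copies summed, a setting added once the values were known, all 13 genes were still called higher, with log2 fold changes of 0.48 to 1.27 and a median of 0.74. Some of these genes also overlap in the genome, mt-Atp8 and mt-Atp6 by 43 bases, mt-Nd4l and mt-Nd4 by 7 bases, and mt-Nd5 and the opposite-strand mt-Nd6 by 14 bases. Reads from the stretch shared by mt-Nd5 and mt-Nd6 cannot be told apart in a library made without strand marks. Genes of the other pairs lie on the same strand, so reads within their shared bases fit both genes with or without strand marks.

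**Figure D2:**
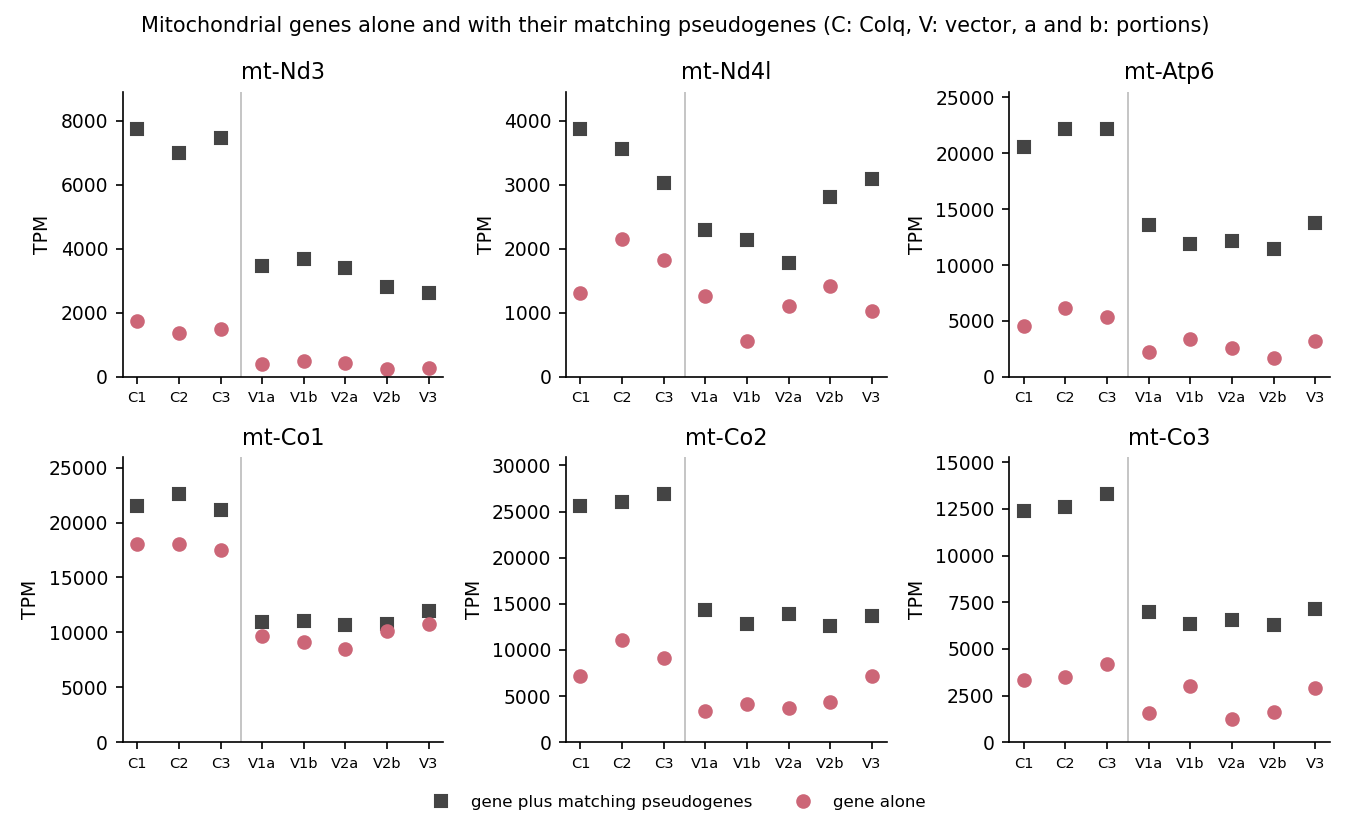
TPM in each of the 8 libraries (Colq tumors C1 to C3, then vector tumors with portions a and b) is plotted for the 6 mitochondrial genes that match a pseudogene, alone (red circles) and summed with the matching pseudogenes (black squares). For mt-Co2 the summed values lie at 25567 to 26852 in Colq and 12552 to 14364 in vector libraries, while the values of the gene alone scatter.

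Subunit transcripts took a larger share of all TPM in Colq tumors. The mitochondrially encoded subunits took 7.70% ± 0.35 in Colq and 4.47% ± 0.67 in vector tumors, and the nuclear encoded subunits took 5.49% ± 0.11 and 3.53% ± 0.077 (SD, n = 3 each). In neither case did the groups overlap: the libraries were at 7.40% to 8.09% against 3.73% to 5.24%, and at 5.36% to 5.57% against 3.34% to 3.70%. The pseudogene copies, which are not members, took a further 5.4% ± 0.21 against 2.88% ± 0.17. The ratio of mitochondrially to nuclear encoded subunit TPM was 1.40 ± 0.092 in Colq and 1.27 ± 0.21 in vector tumors, with the groups overlapping. With copies counted as mitochondrial it was 2.39 ± 0.074 against 2.09 ± 0.18, with every Colq tumor above every vector tumor. These shares were given no test.

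**Figure D3:**
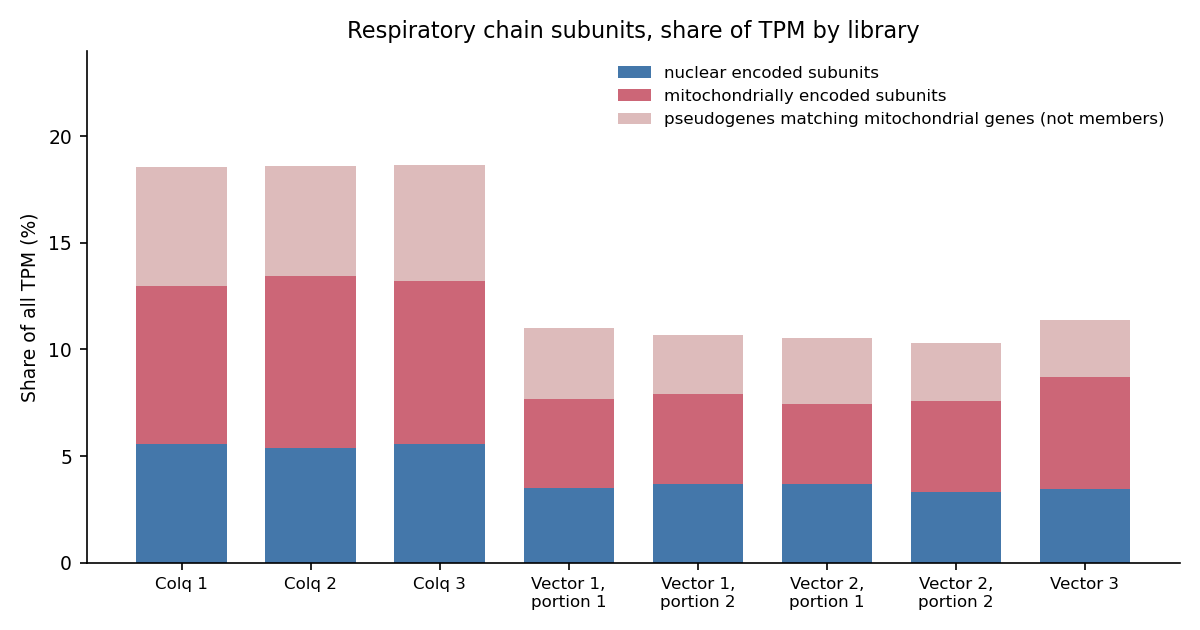
Stacked bars give the share of all TPM in each library taken by nuclear encoded subunits, mitochondrially encoded subunits and the pseudogenes that match mitochondrial genes. Both kinds of subunit take more in each of the 3 Colq libraries than in each of the 5 vector libraries.

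Nuclear subunits of complex I were higher for 30 and lower for 5 of 40 tested, with a median of 0.61. They took 1.54% ± 0.026 of TPM in Colq and 0.994% ± 0.015 in vector tumors. This group was set by Nduf symbols. It therefore also holds Ndufa4 and Ndufa4l2, described with complex IV below, and extra copies such as Ndufb4b and Ndufb4c. Core and accessory subunits differed in their counts. Of the 7 nuclear core subunits, which carry the flavin and iron-sulfur clusters, 2 were higher and 3 lower, with a median of 0.03. Of the 29 accessory subunits 26 were higher and 2 lower, with a median of 0.64. Over all tested genes 11.3% were higher and 59.6% lower. After size factors 5 core subunits were higher and 0 lower (median 0.57), and 28 accessory subunits higher and 0 lower (median 1.18). With a coding-length trend removed, 4 core subunits were higher and 0 lower (median 0.26). The accessory counts were then 22 and 1 of 28 (median 0.46). Over all genes these 2 scales gave 26.5% higher and 27.7% lower, and 18.7% and 27.9%. Between these 2 kinds of subunit the difference itself was not tested.

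Ndufs1, the core subunit with the most iron-sulfur clusters, was at 61.7 to 65.83 TPM in Colq tumors and at 93.25 to 122.9 TPM in vector tumors. All Colq values were below all vector values, and the log2 fold change was -0.70 ± 0.10 (adjusted p = 0.00063). Ndufv1, which binds NADH and the flavin, was at -0.50 ± 0.07. The cluster-bearing cores Ndufv2 (0.60 ± 0.05) and Ndufs8 (0.29 ± 0.05) were higher. Ndufs3 (0.05) and Ndufs7 (0.03) had overlapping groups and were called higher after size factors (0.59 and 0.57).

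Among accessory subunits the highest were Ndufb4, at 199.8, 185.5 and 195.6 TPM against 91.2, 91.8 and 97.5 TPM (log2 fold change 1.04 ± 0.06, adjusted p = 1.5e-05), and Ndufb2 at 1.00 ± 0.10. The accessory subunits that were lower were Ndufa10 (-0.63 ± 0.06) and Ndufa9 (-0.22 ± 0.05), of which Ndufa9 lies near the quinone site. Ndufa9 was called higher instead after size factors (0.31, adjusted p = 0.0013) and with a coding-length trend removed (0.20, adjusted p = 0.0095). Ndufa13, at 0.10 ± 0.10, was not called with all tumors and was called higher without vector tumor 3 (0.21, adjusted p = 0.025). Of the extra copies of Ndufb4, Ndufb4c was higher by 1.31 ± 0.15 and Ndufb4b, at 2.38 to 13.5 TPM in Colq tumors, was not called (0.81 ± 0.51) except without Colq tumor 3 (1.31, adjusted p = 0.035). Reads of these near-identical copies may be split among them, so their values are uncertain.

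Complex II, the succinate dehydrogenase that also belongs to the citric acid cycle, took a share of TPM of 0.0877% ± 0.0013 in Colq and 0.0893% ± 0.0038 in vector tumors, with overlapping groups. Its subunits went in both directions. Sdha, the flavin subunit that oxidizes succinate, was at 75.4, 79.4 and 71.3 TPM against 131.7, 122.9 and 130.4 TPM, a log2 fold change of -0.76 ± 0.06 (adjusted p = 4.5e-05) and the lowest of all members. The iron-sulfur subunit Sdhb was at -0.14 ± 0.05 (adjusted p = 0.024); that call was lost without Colq tumor 1 (0.088) or Colq tumor 2 (0.072), and Sdhb was higher after size factors (0.40, adjusted p = 0.00079). Of the membrane anchors, Sdhd was higher, at 238.5, 240.7 and 248.5 TPM against 174.2, 165.4 and 177.8 TPM (0.49 ± 0.05, adjusted p = 0.00013). Sdhc, at 0.08 ± 0.11, was not called with all tumors, and without vector tumor 3, which held the highest value, it was called higher (0.21, adjusted p = 0.014).

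Nuclear subunits of complex III were higher for 6 and lower for 1 of 8, with a median of 0.81, and their share of TPM was 0.627% ± 0.018 against 0.354% ± 0.020. All 5 small subunits were higher, from Uqcrb at 0.76 to Uqcr10 at 1.09. Uqcr10 was at 1759, 1646 and 1729 TPM in Colq tumors and at 921.8, 755.0 and 739.4 TPM in vector tumors (adjusted p = 4.2e-05). The groups were far apart there, while the large core proteins split: Uqcrc1 was lower (-0.40 ± 0.06) and Uqcrc2 higher (0.33 ± 0.09). The Rieske iron-sulfur protein Uqcrfs1, which hands electrons to cytochrome c1, was not called (0.06 ± 0.07).

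Nuclear subunits of complex IV, which surround the mitochondrially encoded core, were higher for 9 and lower for 0 of 12 tested, with a median of 0.64 and a share of TPM of 1.17% ± 0.029 against 0.738% ± 0.027. At an unadjusted p under 0.05 limma counted 10 higher and 0 lower, and the authors' deposited table had 11 higher and 0 lower of 13. With the coding-length trend removed, 5 of 12 were higher, beside 18.7% of all genes, and the median was 0.22. The 3 not called were Cox6a1 (0.28 ± 0.11), Cox8a (0.08 ± 0.06) and Cox4i2 (-0.01 ± 0.25). Cox7a2, the widely expressed form of its subunit, was at 1080, 1045 and 1128 TPM against 541.1, 515.1 and 463.1 TPM, a log2 fold change of 1.10 ± 0.07 (adjusted p = 2.1e-05). Cox4i1, the main form of the regulatory subunit 4, followed at 1760, 1693 and 1716 TPM against 953.0, 896.8 and 749.5 TPM (1.00 ± 0.09, adjusted p = 5.8e-05). Its hypoxia-linked alternative Cox4i2 stayed between 1.56 and 3.40 TPM in all tumors. Cox6a1 had every Colq tumor above every vector tumor but missed the threshold (adjusted p = 0.051), and it passed without vector tumor 1 (0.041), vector tumor 2 (0.043) or vector tumor 3 (0.018). Cox7a2l, a factor that joins complexes III and IV, was at 0.29 ± 0.06.

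Ndufa4 carries a complex I name and is known as a complex IV subunit. By its symbol it was counted above with complex I, and not in the counts and share of complex IV. It was at 2079, 1997 and 2183 TPM in Colq tumors and at 882.7, 971.5 and 981.2 TPM in vector tumors, a log2 fold change of 1.14 ± 0.06 (adjusted p = 1.5e-05). Ndufa4l2, its hypoxia-induced relative, was at 14.6 to 18.9 against 15.1 to 19.8 TPM, with overlapping groups. After size factors Ndufa4l2 was called higher (0.51, adjusted p = 0.01). The heart and muscle isoforms outside the member list were all higher: Cox8b (3.70 ± 0.39), Cox7a1 (2.57 ± 0.22) and Cox6a2 (2.12 ± 0.34), with a summed level of 61.7 to 79.1 TPM in Colq and 4.12 to 10.8 TPM in vector tumors. Their widely expressed counterparts stood far above them in TPM, Cox7a2 at 1084 ± 41.8 against Cox7a1 at 37.3 ± 7.62 in Colq tumors.

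Complex V was the most abundant nuclear group, at 2.07% ± 0.044 of TPM in Colq and 1.35% ± 0.052 in vector tumors, and all 17 nuclear subunits were called, 13 higher and 4 lower, with a median of 0.59. The F1 part, made of the catalytic head and the central stalk, was split. Atp5e, its smallest subunit, was at 2640, 2484 and 2625 TPM against 949.9, 879.5 and 848.8 TPM, the largest nuclear change (1.54 ± 0.06, adjusted p = 9.7e-06), and Atp5c1 was higher (0.37 ± 0.04). Atp5a1, the alpha subunit, was at 436.5, 434.9 and 421.3 TPM against 650.1, 597.8 and 684.7 TPM, a log2 fold change of -0.58 ± 0.06 (adjusted p = 0.00013). The catalytic beta subunit Atp5b was at 2157, 2162 and 2202 TPM against 2859, 2668 and 2984 TPM (-0.38 ± 0.06, adjusted p = 0.00056). Atp5d was at -0.17 ± 0.05 (adjusted p = 0.023); the call was lost without Colq tumor 1 (0.078), Colq tumor 3 (0.084) or vector tumor 1 (0.054), and Atp5d was higher after size factors (0.37, adjusted p = 0.0024).

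Outside the F1 part, all 4 subunits of the peripheral stalk were higher (0.38 for Atp5pb to 0.69 for Atp5h). All 5 small membrane subunits, of which several hold ATP synthase dimers together, were higher with a median of 1.18: Atp5l (1.34), Atp5md (1.31), Atp5k (1.18), Atp5mpl (0.99) and Atp5j2 (0.96). The 3 genes that encode the c ring, whose rotation drives the enzyme, differed: Atp5g1 (0.53 ± 0.06) and Atp5g3 (0.45 ± 0.06) were higher and Atp5g2 (-0.18 ± 0.05) lower. After size factors Atp5g2 was higher instead (0.35, adjusted p = 0.0025). Atpif1, the ATP synthase inhibitor outside the member list, was at 918 ± 23.4 against 516 ± 10.9 TPM (0.83 ± 0.05).

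Nuclear subunits that fell had longer coding sequences as a group. Coding length had a median of 348 bases over the 57 nuclear members that were higher and have a length, and 1390.5 bases over the 12 that were lower. Across the 78 nuclear members with a length, Spearman's rho of log2 fold change and coding length was -0.71, and across all 12055 tested genes with a coding length it was -0.61; genes of one library set are not independent, and no p is given. Below 300 bases, 56.6% of all genes were higher and 12.9% lower, and of 21 nuclear members 19 were higher and 0 lower, with medians of 0.44 and 0.89. At 1200 bases or more, 3.04% of all genes were higher and 81.1% lower, and 2 of 9 members were higher and 7 lower, with medians of -0.76 and -0.40. From 300 to under 600 bases, 36.7% of all genes were higher and 24.9% lower, and of 37 nuclear members 31 were higher and 2 lower, with medians of 0.09 and 0.59. From 600 to under 1200 bases, 12.6% were higher and 52.9% lower, and of 11 nuclear members 5 were higher and 3 lower, with medians of -0.32 and 0.06. The members' median was thus above that of all genes in each of the 4 bands.

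**Figure D4:**
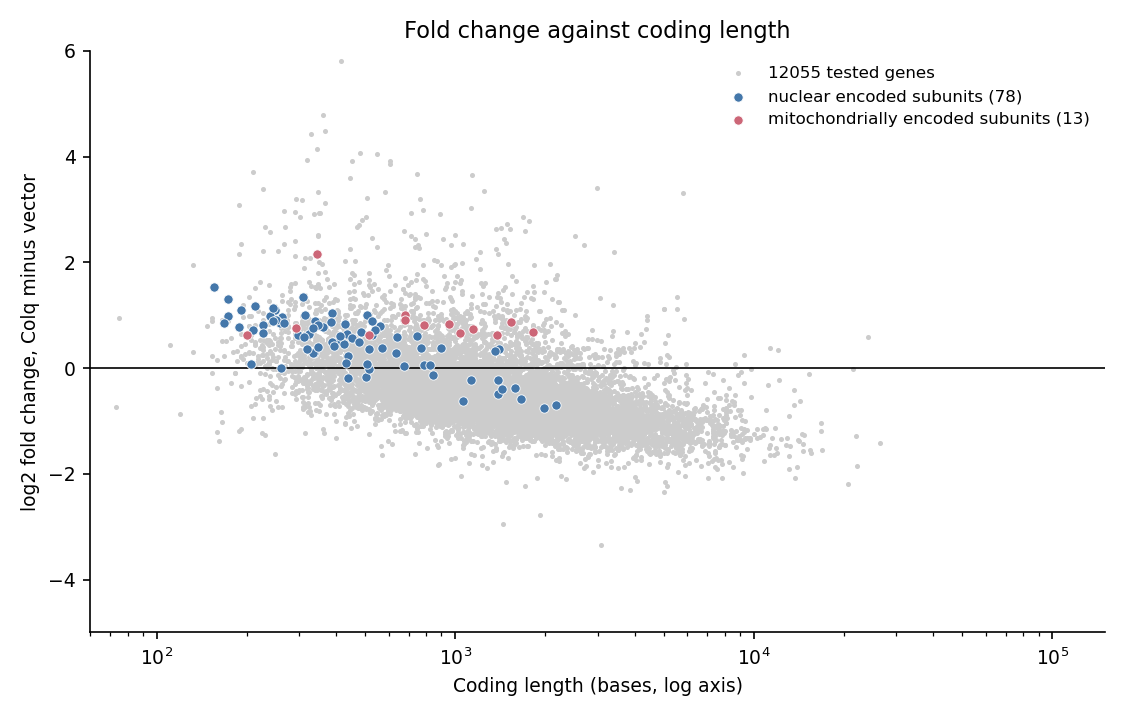
The log2 fold change (Colq minus vector) is plotted against coding length on a log axis for 12055 tested genes (grey), 78 nuclear encoded subunits (blue) and 13 mitochondrially encoded subunits (red). Values fall with length for all genes and for the nuclear subunits, while the mitochondrially encoded subunits lie above 0 at every length.

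A loess fit on coding length and GC content was then subtracted, a setting added once the values were known, and 66 of 91 members were higher and 3 lower, with a median of 0.43, against 18.7% and 27.9% over all genes. With exonic in place of coding length, 63 of 93 were higher and 4 lower, against 19.6% and 27.6%. The 3 still lower with the coding-length trend removed were Ndufa10 (-0.25, adjusted p = 0.0080), Atp5g2 (-0.27, adjusted p = 0.0031) and Atp5d (-0.17, adjusted p = 0.040). Atp5b became higher (0.22, adjusted p = 0.025), and Sdha, Ndufs1, Ndufv1 and Atp5a1 were no longer called, at -0.03, 0.03, 0.00 and 0.06. After size factors only Sdha was lower (-0.23, adjusted p = 0.020). None of the 12 lower members was lower on deposited TPM, size factors and the coding-length scale alike. Sdha was lower on the first 2 and with the exonic length trend removed (-0.33, adjusted p = 0.0051), a setting chosen earlier than the coding-length one. By contrast, Atp5e, Atp5l, Atp5md, Uqcr10, Cox7a2, Cox4i1 and Ndufa4 were higher on deposited TPM, size factors and the coding-length scale. Among these 7 the smallest value was 0.68 with the coding-length trend removed. mt-Nd4l was the only one of the 13 mitochondrial genes no longer called on that scale (0.39, adjusted p = 0.15).

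**Figure D5:**
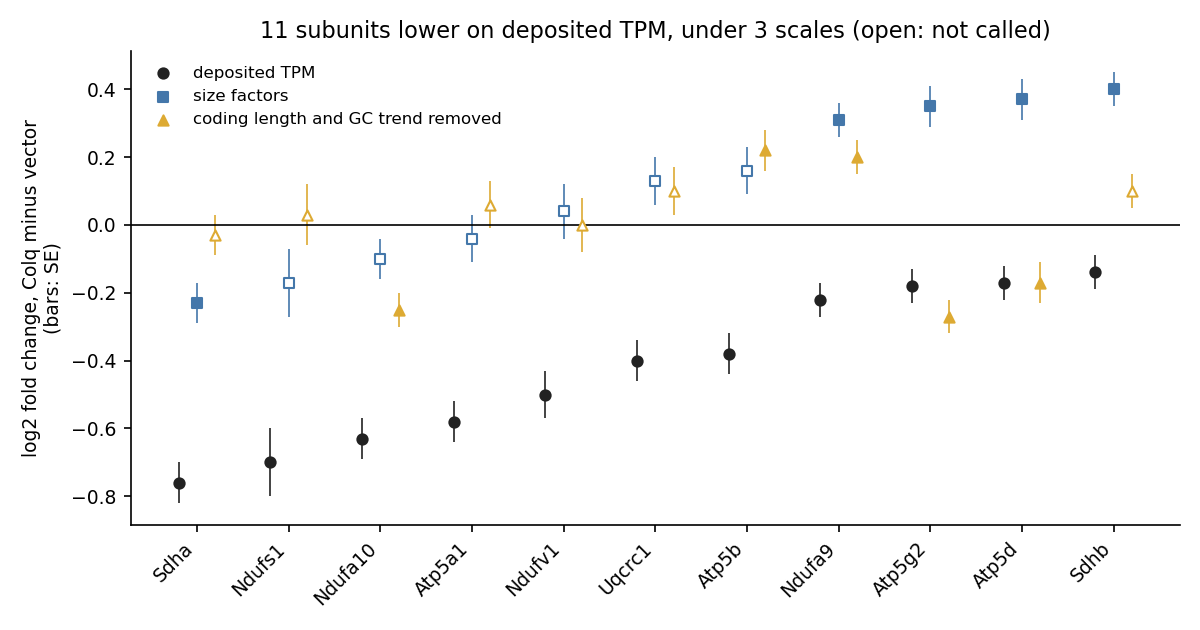
For 11 of the 12 subunits lower on deposited TPM, the log2 fold change with its SE is plotted on deposited TPM (black), after size factors (blue) and with the coding-length and GC trend removed (yellow), with open symbols for values not called. Every black point is below 0, and no plotted subunit is called lower on all 3 scales.

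The authors' deposited table, a DESeq2 comparison on its own scale, held adjusted p-values for 94 members, of which 84 were higher and 1 lower, with a median log2 fold change of 1.18; over all its 18256 genes with an adjusted p, 20.6% were higher and 21.2% lower. In the authors' deposited table the lower member was Sdha (-0.22, adjusted p = 0.020), and Atp5e was at 2.09 and mt-Nd3 at 2.68. Atp5a1 (-0.03), Ndufs1 (-0.17) and Atp5b (0.16) did not pass in the authors' deposited table. It was made from the same series as the fits above, so it is not an independent result. Which libraries entered it is not given.

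Assembly factors, which are not members, had medians between the members' 0.64 and the -0.50 of all genes; these differences were not tested. Those of complex I were higher for 7 and lower for 7 of 18 (median 0.05). Those of complex IV were higher for 12 and lower for 10 of 25 (median 0.04). Among all tested genes 11.3% were higher and 59.6% lower. Of complex III 4 were higher and 2 lower of 9 (median 0.19), of the ATP synthase 3 and 1 of 5 (median 0.31), and of complex II 1 of 4 was higher (median 0.23). After size factors 11 of complex I were higher and 0 lower (median 0.56) and 15 and 1 of complex IV (median 0.57). Over all genes 26.5% were then higher and 27.7% lower. Among those with the smallest p were Uqcc2 for cytochrome b (0.97 ± 0.07), Fmc1 for the F1 head (0.87 ± 0.08), Sdhaf4 for Sdha (0.76 ± 0.07), Tmem126a for complex I (0.76 ± 0.07) and Cox17, a copper chaperone (0.74 ± 0.07). Cox17 was not called with the coding-length trend removed (0.19, adjusted p = 0.057). Ttc19 of complex III was lower (-0.69 ± 0.10), and did not pass on size factors (-0.20, adjusted p = 0.12).

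Genes that maintain and express mitochondrial DNA were higher for 4 and lower for 13 of 26, with a median of -0.32, beside 11.3% and 59.6% over all genes. After size factors 9 were higher and 5 lower, with a median of 0.16, beside 26.5% and 27.7% over all genes. The lower ones included Lrpprc, which stabilizes mitochondrial mRNA, at 12.3, 12.5 and 11.7 TPM against 29.1, 27.6 and 38.2 TPM (-1.30 ± 0.13), the RNA processing enzyme Elac2 (-1.18 ± 0.11) and the DNA polymerase subunit Polg (-0.70 ± 0.06). Polg turned higher with the coding-length trend removed (0.24, adjusted p = 0.0090). Of the list, 9 genes were then higher and 1 lower, beside 18.7% and 27.9% over all genes. Nuclear regulators of respiratory genes were higher for 1 and lower for 8 of 9 tested, with a median of -0.89. They included Nrf1 (-0.89 ± 0.09), Yy1 (-0.97 ± 0.07) and Pprc1 (-1.23 ± 0.11). After size factors 6 of 9 were lower, beside 27.7% of all genes. With the coding-length trend removed 4 were lower, beside 27.9% of all genes, and Nrf1 was among them (-0.29, adjusted p = 0.019). Pprc1 (-0.25, adjusted p = 0.075) and Lrpprc of the list before (-0.28, adjusted p = 0.072) were then not called. With the exonic length trend removed Nrf1 was not called (-0.05, adjusted p = 0.59).

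Citric acid cycle enzymes were higher for 0 and lower for 11 of 14 (median -0.41), beside 11.3% and 59.6% over all genes. Citrate synthase Cs led them at 93.2, 100.4 and 93.7 TPM against 190.4, 174.4 and 200.8 TPM (-0.97 ± 0.07). By unadjusted p under 0.05 limma also gave 0 higher and 11 lower, while the authors' deposited table had 6 higher and 4 lower of 14. After size factors 6 were higher and 4 lower, with a median of 0.13, and Cs was still lower (-0.43, adjusted p = 0.0019). With the coding-length trend removed 3 were higher and 2 lower (median 0.05), beside 18.7% and 27.9% over all genes. Cs was lower on that scale too (-0.43, adjusted p = 0.0024). Electron carriers and other subunits outside the symbol rule were higher for 2 and lower for 3 of 10. The glycerol-phosphate dehydrogenase Gpd2 was lower (-1.22 ± 0.09) and the flavoprotein Etfb higher (0.56 ± 0.05). After size factors 6 of this list were higher and 2 lower (median 0.42), beside 26.5% and 27.7% over all genes. Inner membrane carriers, porins and cristae organisers were higher for 8 and lower for 6 of 18, and for 14 and 3 after size factors (median 0.53). The small MICOS subunits Micos10 (0.91 ± 0.06) and Micos13 (0.81 ± 0.06) were higher and the fusion protein Opa1 lower (-1.18 ± 0.08).

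Promoters of the nuclear members were read from RefSeq (build GRCm38.p6, 250 bases before to 50 after each start), where 67 of 85 members have an entry. Both strands were searched for TGCGCA (the core of the NRF1 motif; NRF1 regulates respiratory genes), CCGGAAG (ETS factors such as GABP), AAGATGG (YY1) and TATAAA; the second and the third can share the letters AAG. The NRF1 and YY1 letters are shorter forms, chosen after a search with longer ones had been seen. The NRF1 motif was in 18 of 67 members (26.9%), in 15.8% of the 10085 tested genes with a promoter and in 8.79% of all 27025 genes with one. The ETS motif was in 25.4%, 20.3% and 9.93%, the YY1 motif in 16.4%, 8.41% and 7.28%, and the TATA letters in 8.96%, 9.10% and 15.7%. The NRF1 motif was in 13 of 50 members that were higher and in 4 of 9 that were lower. The upstream 250 bases are shown for the lowest and the highest called nuclear member with a single entry, with NRF1 and ETS matches in capitals and reading 5′ to 3′ toward the start.
Sdha, chr13:74350241-74350490, minus strand: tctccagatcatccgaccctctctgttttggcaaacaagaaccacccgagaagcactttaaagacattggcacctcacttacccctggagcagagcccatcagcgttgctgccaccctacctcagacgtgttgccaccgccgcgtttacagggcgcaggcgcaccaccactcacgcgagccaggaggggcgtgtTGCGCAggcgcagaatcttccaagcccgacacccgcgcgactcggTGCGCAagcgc
Atp5e, chr2:174464102-174464351, minus strand: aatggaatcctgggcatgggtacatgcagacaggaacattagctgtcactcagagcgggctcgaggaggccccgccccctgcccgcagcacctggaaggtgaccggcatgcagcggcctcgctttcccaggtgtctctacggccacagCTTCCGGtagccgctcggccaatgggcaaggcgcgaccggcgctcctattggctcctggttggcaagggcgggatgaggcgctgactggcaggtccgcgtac
The Sdha window holds 2 NRF1 matches that do not overlap, and the Atp5e window holds 1 ETS match on the opposite strand. A match is a description of the letters and not of binding in these tumors.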

How the data were processed

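Poly-A RNA of whole tumors, extracted with TRIzol, was sequenced from libraries that do not mark strand, per the labels' protocols. The authors deposited log2(TPM + 1) values, for which the submitters' processing notes name RSEM and build mm39, without versions. For the annotation, the release was not given in the sources used here. The unit was read from the values, of which 99.92% return to hundredths of TPM (tolerance 0.001). The authors also deposited a DESeq2 comparison per gene ID, holding a mean signal, log2 fold change, score and p-value per the file headers; which libraries entered it is not given, and Colq set its direction. Its 26581 IDs with a match were paired with symbols through GENCODE M21. A deposited table of receptor clonotypes was not used.

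Groups and replicate numbers came from titles. Portions were averaged per tumor on the log2 scale, and genes with a mean of at least 1 TPM over 6 tumors were tested with limma 3.58.1 in R 4.3.3 (trend, Benjamini-Hochberg over 13726 genes, threshold 0.05). Fold changes on this scale understate low genes. Printed TPM per vector tumor is the mean of its portions, and SDs leave out the spread between portions. An exact permutation test of 3 against 3 tumors cannot go below p = 0.1. The labels call replicates separate tumors. The members and gene lists were chosen with earlier results of these data known, as were the tests. Named are every mitochondrial member, the 3 highest, 3 lowest and most abundant nuclear members per complex, isoform groups, and up to 3 genes per list by smallest p; Ndufs3, Ndufs7, Ndufs8, Ndufv2, Ndufa9, Ndufa13, Ndufb2, Ndufb4b, Atp5c1, Atp5d, Atp5h, Atp5pb, Atp5k, Atp5mpl, Atp5j2 and Uqcrb were added after their values were seen, to fill out their roles. A few genes counted in the totals are not reported here by name.

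Lengths, GC content and pseudogene copies (at least 95% identity over 50% of the model, by blastn) came from GENCODE M21, on GRCm38, which differs from the authors' build, and 96 of 98 members had a length. Trends on length and GC were removed by loess (span 0.5), and size factors are medians of ratios. On data simulated for 13726 genes, the test recovered 77% of log2 changes of 1 and 97% of changes of 2, with 7 false calls. The simulation moved 200 genes, all upward, with independent noise and no shift of the median gene. Its rates may therefore not hold for these data, where the median gene was at -0.50. Replicate numbers did not pair the tumors: deviations of same-numbered tumors correlated at 0.03, 0.007 and 0.044.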

Additional observations from a re-analysis of the deposited data

How the results depend on the processing

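The direction of the members' median and of the excess of higher over lower members held under all 23 settings tried: pseudocounts, filters, scales, treatments of portions, robust moderation, a replicate block, removal of length trends, summed copies, Colq libraries as 1 sample, and leaving out each tumor. TPM gives no read depth, so precision rests on 3 tumors per group. Size factors moved the median of all genes from -0.50 to -0.03; the causes of changes with scale were not tested. Of 2316 values of single genes under these settings, 2163 kept direction and call, 70 lost a call, 35 gained one and 48 changed sign.

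Over all genes the number higher went from 1556 to 3644 (size factors), 3142 (quantile normalization), 2628 (exonic length and GC trend removed) and 788 (the 3 Colq libraries averaged), and the number lower from 8181 to 3797, 4267 and 3695 under the first 3 and 3364 with the coding-length trend removed. Lower members, all nuclear, went from 12 to 1 (size factors), 7 (quantile), 4 (exonic length), 3 (coding length) and 6 (Colq libraries averaged, which leaves fewer samples). The members' median of 0.64 went to 1.18, 0.59, 0.46 and 0.43 under size factors, quantile, exonic length and coding length, and the nuclear median of 0.60 to 1.13, 0.64, 0.47 and 0.40, and to 0.65 with TPM rescaled after leaving out haemoglobin, immunoglobulin and mitochondrial genes. The mitochondrially encoded median of 0.75 went to 1.29 (size factors), 0.43 (quantile) and 0.42 (exonic length), and 8 of 13 stayed called under each of the last 2. The mitochondrial share of TPM differed by 3.23 percentage points, and by 5.75 with copies summed.

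Leaving out each tumor in turn gave 70 to 75 members higher and 9 to 12 lower, medians of 0.61 to 0.66 over members, 0.67 to 0.83 over mitochondrial and 0.57 to 0.61 over nuclear members, 11 to 13 mitochondrial genes higher, 1310 to 1549 genes higher and 7484 to 8216 lower, and share differences of 2.99 to 3.61 and 1.93 to 2.03 points. With a replicate block 73 members were higher and 10 lower, against 72 and 12, and 1526 genes higher and 7928 lower; the numbers do not pair the tumors.

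Signs changed for these genes among those named. After size factors Atp5b was at 0.16, Atp5d 0.37, Ndufa9 0.31, Atp5g2 0.35, Cox4i2 0.36, Ndufa4l2 0.51, Ndufv1 0.04, Sdhb 0.40 and Uqcrc1 0.13. With the exonic length trend removed Atp5b was at 0.12, Atp5d 0.04, Atp5g2 0.01, Cox8a -0.23, Ndufs1 0.03, Sdhb 0.05, Uqcrc1 0.12, Uqcrfs1 -0.12, Polg 0.21 and Dlst 0.11. With the coding-length trend removed Atp5a1 was at 0.06, Atp5b 0.22, Ndufa9 0.20, Cox7a2l -0.06, Cox8a -0.14, Ndufs1 0.03, Ndufv1 0.00, Sdhb 0.10, Sdhc -0.03, Uqcrc1 0.10, Sdhaf1 -0.01 and Polg 0.24. Cox4i2 and Ndufa4l2, near 0 on deposited TPM, were at 0.15 and 0.56 (quantile) and 0.03 and 0.04 (rescaled TPM). Cox4i2 was at 0.09 with second portions, and Ndufa4l2 at 0.11 with first portions and 0.00 with either lower pseudocount. Leaving out a tumor put Cox4i2 at up to 0.16, Ndufa4l2 at up to 0.08, Ndufs7 at -0.04 and Sdhc at -0.00. The complex II median, -0.03, changed sign under 6 of 23 settings (range -0.08 to 0.50), those of electron carriers and of mitochondrial DNA genes under 4 each (up to 0.42 and 0.24), of complex I assembly factors under 3, of citric acid cycle enzymes under 2 (up to 0.13) and of inner membrane genes under 1.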

Other observations

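The mitochondrial ribosomal RNAs, which are not members, were also higher in Colq tumors: mt-Rnr1 was at 478 ± 7.58 against 187 ± 18.9 TPM (log2 fold change 1.36 ± 0.08) and mt-Rnr2 at 224 ± 0.771 against 94.5 ± 11.4 TPM (1.25 ± 0.09; SD, n = 3 each). The libraries were made from poly-A RNA, and how far these values follow total ribosomal RNA was not tested. Pseudogene copies of mt-Rnr1 and mt-Rnr2 were not searched for. The largest difference between 2 portions of a single vector tumor was an absolute log2 difference of 2.82 for Ndufb4b in tumor 1 and 1.24 for Ndufa4l2 in tumor 2. Between Colq tumors the largest was 2.10, for Ndufb4b. The pseudogene Gm14539, which matches Atp5md over its whole length of 174 bases, was at 40.3, 65.3 and 140.6 TPM in Colq libraries, at 73.0 TPM in the first portion of vector tumor 2, and listed at 0 in the other 4 vector libraries.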
